A study of Xenopus laevis with 12 samples.

Results

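The genes described here belong to the Wnt signalling pathway of the frog Xenopus laevis, dact4 among them. They were chosen by name: genes of the deposited table whose symbols mark Wnt ligands, Frizzled, LRP and Ror receptors, R-spondins with their receptors, secreted inhibitors, Dishevelled, Axin, Dact and beta-catenin proteins, TCF/LEF factors, Vangl and Prickle. The rule gave 112 of 44478 genes, from 69 symbols. X. laevis carries 2 related sets of chromosomes, so many genes occur as a pair of homeologs named .L and .S, and 43 such pairs were among the members. By role there were 30 ligands, 21 receptors, 13 genes of the R-spondin axis, 20 secreted inhibitors, 12 cytoplasmic transducers, 6 nuclear factors and 10 genes of the planar polarity core.

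Bulk RNA was sequenced from pools of whole bots, which are living constructs made of ectoderm cut from the animal pole of blastula embryos. Neurobots (4 pools, NB1 to NB4, of 14, 12, 12 and 12 bots) were such explants carrying an implant of dissociated ectodermal cells that had been kept apart long enough to take a neural fate. Sham neurobots (4 pools, SH1 to SH4, labelled NN, of 5, 6, 6 and 5 bots) carried an implant of cells put back together soon after dissociation. Biobots (4 pools, BB1 to BB4, labelled XB, of 16, 6, 6 and 5 bots) were explants without an implant. The labels name no genetic change in any group, the implants were made from cells of many embryos, and the RNA of neurobots and sham neurobots is a mixture of epidermis and implant.

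Wnt proteins are secreted, lipid-carrying signals. In the canonical branch, a Wnt bound to a Frizzled receptor and to LRP5 or LRP6 acts through Dishevelled on the complex of Axin, APC and GSK3, so that beta-catenin is no longer destroyed and joins TCF/LEF factors on DNA. Other branches work through Ror2 or through the planar polarity proteins Vangl and Prickle and act on cell shape and movement. In frog embryos, Wnt signals pattern the neural plate from head to tail, induce neural crest and take part in building the mucociliary epidermis. Dact proteins, also called Dapper or Frodo, bind Dishevelled, and dact4 is a member of this family known from the Spemann organizer of X. laevis.

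Library totals ran from 27265034 to 37985824 counts. Expression is given as the deposited FPKM, fragments scaled to gene length and library size, which allows levels of different genes to be compared. Differences are log2 fold changes with standard errors from edgeR's quasi-likelihood test on the counts. A gene rose or fell where its p, adjusted by the Benjamini-Hochberg method over all genes tested, was under 0.05. The labels did not say whether pools of a group came from separate rounds of construction, so p-values measure the spread between these pools. The pools NB1 and BB1 belong to an earlier sequencing submission than the other 10. The labelled types were described by their markers. Of 22 neuronal marker genes, 20 of 21 tested rose in neurobots against either other bot type, and syt1.L fell. Over all genes tested, 19.5% rose against biobots and 19.6% against sham neurobots. Between sham neurobots and biobots 7 of the 22 were tested. Markers with enough counts for a test only in neurobots had to differ, so these calls do not check the labels. Summed neuronal markers were at 366 to 647 FPKM in neurobots, 42.8 to 47.3 in sham neurobots and 48.6 to 51.6 in biobots. Most of the signal in the sham neurobots and biobots was from syt1.L, which had 35.0 to 38.6 FPKM in sham neurobots and 45.1 to 47.4 in biobots. All 14 neural progenitor markers rose in neurobots, where their sum was 115 to 293 FPKM, against 1.65 to 2.12 in sham neurobots and 1.10 to 1.97 in biobots. Between sham neurobots and biobots 3 of the 14 were tested, so the same limit holds for these calls. Summed ionocyte markers were at 14.5 to 318 FPKM in neurobots (318 in NB1), 318 to 538 in sham neurobots and 553 to 660 in biobots, and goblet cell markers at 4744 to 10523, 7727 to 11968 and 12156 to 14228 FPKM in the same order. Most of the goblet sum was itln1.L, and of 5 goblet markers tested 1 rose and 3 fell in neurobots against biobots and 2 rose and 2 fell against sham neurobots, with agr2.L at 281 to 636 FPKM in neurobots, 107 to 255 in sham neurobots and 133 to 261 in biobots. Summed keratinocyte markers were at 1289 to 3055 FPKM in neurobots, 1047 to 1233 in sham neurobots and 917 to 1746 in biobots. Multiciliated cell markers were at 963 to 1415, 1195 to 1416 and 1362 to 1734 FPKM in the same order. Against biobots, 2 of 10 keratinocyte markers tested rose and 1 fell. Of 12 multiciliated cell markers tested, 1 rose and 2 fell. The part of these cell types in the Wnt results was not tested. In bulk samples, fewer cells of a type and less RNA per cell cannot be told apart.

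More Wnt pathway genes were higher than lower in neurobots. Against biobots, 47 of the 88 members tested rose and 3 fell, where 19.5% of all genes tested rose and 12.3% fell. Against sham neurobots, 36 of 90 rose and 7 fell, where 19.6% of all genes rose and 13.2% fell. The median log2 fold change of the tested members was 1.11 against biobots (0.03 over all genes) and 0.67 against sham neurobots (0.01 over all genes). Of the members that rose, 7 against biobots and 5 against sham neurobots passed the filter on low counts only through the neurobot pools, where they are high, and such genes had to differ, so they are described below by their counts with no test. Without them, 40 of 81 rose and 3 fell against biobots (median 0.95), and 31 of 85 rose and 7 fell against sham neurobots (median 0.51). Only genes with every pool of the other bot type under the filter's count were taken out. Genes with some of those pools above it stayed in. Examples are notum.L and wnt7b.L against sham neurobots, dkk1.L against biobots, and ror2.S, rspo3.L, lgr5.L and prickle2.L against both. The counts left can thus still hold rises that the filter favoured, and single tests of such genes are not read as support. The comparisons share the neurobot pools: 36 members rose and 3 fell against both other bot types (15.8% and 7.97% of 23832 genes), and axin2.L went in opposite directions. Among the 36, wnt8b.S, rspo2.L, wnt11.L, wnt11.S and wnt11b.L passed the filter only through neurobots in both comparisons, and notum.L did so against biobots. These had to differ, so the 36 is not read against that share. Without NB1, 57 members rose and 5 fell against biobots. Against sham neurobots the number that fell was 4 without NB2 or NB4, and 3 without SH1 or SH3. In no comparison were 22 members tested, with a highest level of 1.57 FPKM (wnt1.L in NB3).

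**Figure D1:**
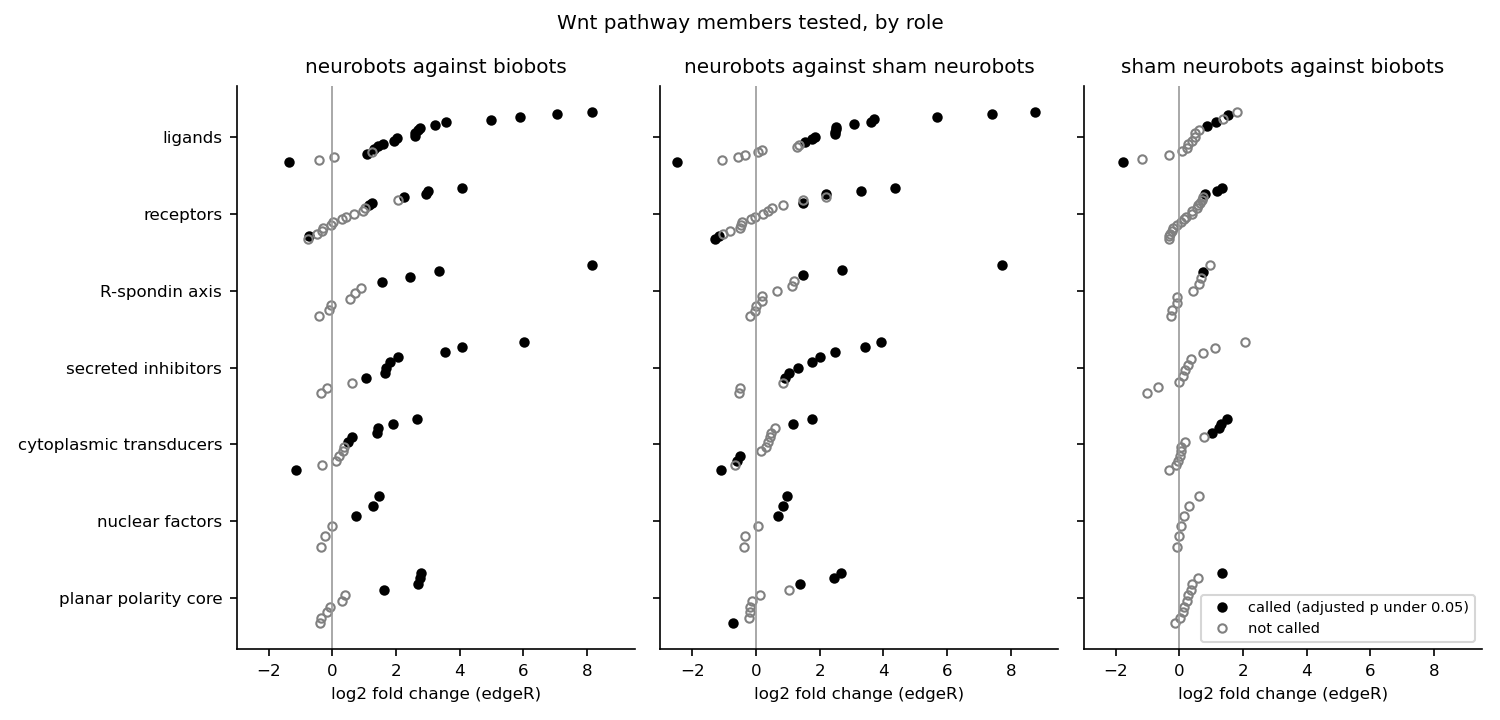
Log2 fold change (horizontal axis, edgeR) of each Wnt pathway member tested, in rows by role, for neurobots against biobots, neurobots against sham neurobots and sham neurobots against biobots; filled points were called at an adjusted p under 0.05. In neurobots 16 of 20 ligands tested lie on the right as called against biobots, or 11 of 15 without the 5 that passed the filter on low counts only through neurobots. Members that passed only through neurobots are drawn as called although they had to differ. In sham neurobots 12 members are called higher than in biobots. Fitted values above about 5 belong to genes with few or no counts in the lower group and depend on the prior count.

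Among the ligands, 16 of 20 tested rose and 1 fell against biobots, or 11 of 15 without the 5 that passed the filter only through neurobots. Against sham neurobots 13 of 21 rose and 1 fell, or 9 of 17 without 4 such genes. Ligands with only some pools of the other bot type above the filter's count stayed in, as given below. The shares of all genes tested were 19.5% higher and 12.3% lower against biobots, and 19.6% and 13.2% against sham neurobots. The summed ligand level was 46.8 ± 15.8 FPKM in neurobots, against 29.4 ± 5.81 in sham neurobots and 17.0 ± 2.40 in biobots (SD, n = 4 each). NB1, with 23.8 FPKM, lay within the range of the sham neurobots, and the other neurobot pools had 51.3 to 59.6.

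wnt11.L (chromosome 2L, 185210830 to 185259230, genome version 10.1), a ligand that acts mainly through the branches that steer cell movement, had 0.756, 1.67, 1.5 and 0.770 FPKM in NB1 to NB4. It had 0.0715, 0, 0.0115 and 0 FPKM in SH1 to SH4 and 0.0125 FPKM in BB1, with 0 in the other biobots. Neurobot pools lay above all others, and the pooled counts were 449 times those of biobots (exact 95% interval for counting error 80.1 to 17760, from 463 counts against 1). Its homeolog wnt11.S (2S, 164161246 to 164211095) had 0.435 to 1.47 FPKM in neurobots, no count in any sham neurobot pool and at most 0.0650 FPKM in biobots. It was at least 16.9-fold higher in neurobots than in sham neurobots, taking 3 counts per sham library as the limit. Both copies passed the filter only through neurobots.

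wnt11b.L (8L, 34311154 to 34317093), the maternal Wnt11 of the frog, had 0.450, 0.234, 0.389 and 0.263 FPKM in neurobots, 0 to 0.0473 in sham neurobots and 0.0171 in BB1 alone of the biobots. Its levels were low in every pool, with 95 counts over the neurobots, against 7 over the sham neurobots and 1 over the biobots. wnt8b.S (7S, 31487371 to 31513813), a ligand of the embryonic forebrain, had 0.729, 3.23, 2.12 and 2.19 FPKM in NB1 to NB4. It had 0, 0, 0.0116 and 0.0302 FPKM in sham neurobots and 0.0505, 0, 0.0114 and 0 in biobots. The neurobot pools did not overlap with the others. Against sham neurobots the ratio of pooled counts was 186 (exact interval 72.5 to 685). Neither gene passed the filter through any other bot type. wnt10b.L passed only through neurobots against biobots, with 14, 43, 19 and 35 counts in NB1 to NB4 and 4, 4, 6 and 2 in BB1 to BB4. It had 6, 1, 15 and 20 counts in SH1 to SH4.

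wnt10a.L (9_10L, 63074160 to 63101719), a ligand known from mammalian skin and its appendages, went the other way. It had 1.08, 1.40, 3.04 and 3.28 FPKM in neurobots, 15.5, 7.61, 10.3 and 14.9 in sham neurobots and 6.06, 5.87, 5.57 and 4.83 in biobots. The groups did not overlap, with sham neurobots highest and neurobots lowest. It fell by 1.35 ± 0.36 on the log2 scale against biobots (adjusted p = 0.0148, but 0.0699 when scaled by library size alone) and by 2.49 ± 0.40 against sham neurobots (adjusted p = 0.00112). Its share of all ligand FPKM averaged 4.7% in neurobots, against 40.3% in sham neurobots and 32.9% in biobots, the most of any ligand in sham neurobots and biobots. wnt10a.S had 0.431 to 0.885 FPKM in neurobots, 0.638 to 2.00 in sham neurobots and 0.701 to 1.20 in biobots and passed the test in no comparison (adjusted p = 0.393, 0.0647 and 0.258 for neurobots against biobots, neurobots against sham neurobots and sham neurobots against biobots). The call against sham neurobots was reached without SH2 (adjusted p = 0.0224) and with DESeq2 (0.0321).

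wnt7b.L (3L, 2841308 to 2887860) was highest in neurobots and lowest in sham neurobots. It had 1.5, 3.51, 3.75 and 3.05 FPKM in neurobots, 0.153, 0.173, 0.345 and 0.200 in sham neurobots and 0.594, 1.03, 0.619 and 0.773 in biobots. No groups overlapped, and it rose by 1.94 ± 0.38 against biobots (adjusted p = 0.00279) and by 3.72 ± 0.43 against sham neurobots (adjusted p = 0.000179), on the log2 scale. Its sham neurobot pools, with 6, 7, 12 and 8 counts, would not have passed the filter alone. wnt6.L (9_10L, 63126401 to 63167761), a ligand of the surface ectoderm and the neighbour of wnt10a.L in the table, had 3.54 to 7.46 FPKM in neurobots, 4.36 to 5.15 in sham neurobots and 1.76 to 3.61 in biobots. It rose by 1.07 ± 0.30 against biobots (adjusted p = 0.0188), a call lost without NB3, BB3 or BB4 (adjusted p up to 0.0533) and with the replicate number as a block (0.0643). wnt6.S, at 0.513, 2.09, 2.06 and 1.85 FPKM in neurobots, 0.182 to 0.664 in sham neurobots and 0.460 to 0.674 in biobots, rose against both. NB1 lay among the values of the other bot types. The calls of wnt6.S held in few of the fits with a library left out: against biobots only without NB1, against sham neurobots only without NB1 or SH1, with adjusted p up to 0.0996 and 0.0724 otherwise, and a replicate block ended both (0.094 and 0.0884). Against sham neurobots they also ended with library size alone (0.051) and with homeologs summed (0.303). The sham neurobot counts of wnt6.S, 25, 19, 18 and 7, would not have passed the filter alone.

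Among ligands outside the naming rule, chosen after their values were seen, wnt4.L had 2.45 to 3.24 FPKM in neurobots, 0.279 to 0.750 in sham neurobots and 0.807 to 1.65 in biobots, and wnt9a.S had 2.40 to 3.63, 0.407 to 0.659 and 0.148 to 0.716 FPKM in the same order. Both rose in neurobots against the other bot types, as did wnt5b.L, wnt16.S, wnt2b.L, wnt4.S and wnt9b.2.L (adjusted p from 7.63e-05 for wnt9a.S to 0.0297 for wnt2b.L, both against sham neurobots). The biobot counts of wnt5b.L, wnt16.S, wnt4.S and wnt9b.2.L, at lowest 9, 1, 5 and 6, would not have passed the filter alone. The same holds for wnt4.S in sham neurobots, at lowest 5. These calls are not read as support. wnt5b.L overlaps fbxl14.L on the other strand, and the library kit was not directional, so reads of the pair cannot be told apart. wnt1.L, a signal of the midbrain border and dorsal neural tube, had 0, 0.997, 1.57 and 0.511 FPKM in NB1 to NB4 and no count in any other pool. It did not pass the filter on low counts, and over the group it was at least 10.7-fold higher than in biobots, taking 3 counts per library as the limit.

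**Figure D2:**
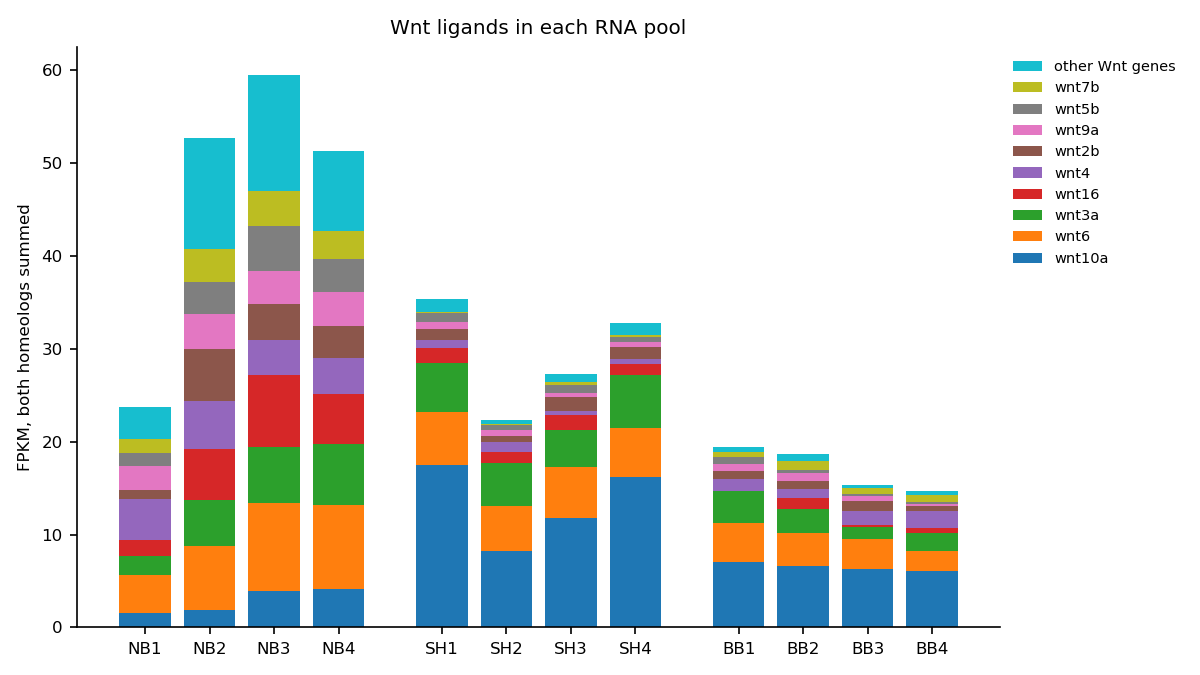
FPKM of the Wnt ligands (vertical axis, both homeologs summed) in each of the 12 pools, as stacked bars of the 9 ligands with the highest mean level and all other Wnt genes together. The wnt10a segment runs from 1.56 to 4.16 FPKM in neurobots, 8.25 to 17.5 in sham neurobots and 6.03 to 7.02 in biobots, and the segment of the other Wnt genes from 3.46 to 12.5, 0.372 to 1.37 and 0.334 to 0.753 FPKM in the same order.

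Fewer receptors changed. Against biobots 6 of 19 tested rose and 1 fell, and against sham neurobots 4 rose and 2 fell. Over all genes tested, 19.5% rose and 12.3% fell against biobots, and 19.6% and 13.2% against sham neurobots. The receptor counts against sham neurobots were near these shares. The summed level was 69.6 ± 17.4 FPKM in neurobots, against 79.0 ± 12.6 in sham neurobots and 60.0 ± 2.90 in biobots (SD, n = 4 each), and the groups overlapped.

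ror2.S (1S, 129054899 to 129157316) encodes a receptor tyrosine kinase of the branch that does not use beta-catenin. It had 2.42, 3.28, 3.46 and 2.54 FPKM in neurobots, 0.255, 0.127, 0.111 and 0.0511 in sham neurobots and 0.400, 0.102, 0.0648 and 0.127 in biobots. Neurobot pools lay above all others, and it rose by 4.07 ± 0.49 against biobots (adjusted p = 0.000172) and 4.38 ± 0.41 against sham neurobots (adjusted p = 6.06e-05). The counts of ror2.S, 50, 17, 9 and 18 in biobots and 39, 20, 15 and 8 in sham neurobots, would not have passed the filter alone. These tests are thus not read as support. Its homeolog ror2.L was better expressed outside neurobots, with 3.06 to 4.56 FPKM in neurobots, 1.20 to 1.63 in sham neurobots and 1.28 to 2.12 in biobots, and rose less, by 1.25 ± 0.22 (adjusted p = 0.00137) and 1.47 ± 0.19 (adjusted p = 0.000343).

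fzd7, a Frizzled receptor used in frog gastrulation and neural crest, rose in both copies. fzd7.L (9_10L, 89949047 to 89953073) had 3.89, 3.17, 6.47 and 5.05 FPKM in neurobots, 0.674 to 1.42 in sham neurobots and 0.756 to 1.22 in biobots. The log2 fold change was 2.24 ± 0.27 against biobots (adjusted p = 0.000165) and 2.20 ± 0.30 against sham neurobots (adjusted p = 0.000432). fzd7.S (9_10S, 78810523 to 78814847) had 1.33 to 3.08 FPKM in neurobots, 0.115 to 0.285 in sham neurobots and 0.168 to 0.306 in biobots, with 3.00 ± 0.35 (adjusted p = 0.000148) and 3.29 ± 0.39 (adjusted p = 0.000206). Neither copy overlapped between neurobots and the other bots.

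fzd10.L (1L, 171864062 to 171866576), the receptor with the highest mean level, was lowest in neurobots. It had 10.3, 9.19, 12.4 and 12.9 FPKM in neurobots, 29.6, 20.4, 32.0 and 25.3 in sham neurobots and 13.4, 17.8, 20.6 and 21.3 in biobots. It fell by 0.72 ± 0.20 on the log2 scale against biobots (adjusted p = 0.0169) and by 1.3 ± 0.19 against sham neurobots (adjusted p = 0.000734). The call against biobots was lost without BB4 (adjusted p = 0.0536) and when scaled by library size alone (0.102). fzd10.S, at 2.11 to 5.51 FPKM in neurobots, 6.31 to 10.9 in sham neurobots and 4.24 to 9.13 in biobots, fell by 1.17 ± 0.29 against sham neurobots (adjusted p = 0.0119). Against biobots its log2 fold change was -0.76 ± 0.31 (adjusted p = 0.0871), and it was called without NB1 (0.0311) or BB1 (0.04). fzd5.L varied widely among the neurobots. This receptor gene, named after its values were seen, had 0.0576, 1.22, 4.81 and 3.78 FPKM in NB1 to NB4, 0.584 to 0.987 in sham neurobots and 0.442 to 0.881 in biobots.

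R-spondins are secreted proteins that keep Frizzled receptors on the cell surface by binding LGR receptors and the ubiquitin ligases ZNRF3 and RNF43. In this group 4 of 10 tested rose against biobots and 3 of 11 against sham neurobots, and none fell by edgeR's test, by DESeq2 or at an unadjusted p under 0.05 (count 0 in each). Without rspo2.L, 3 of 9 and 2 of 10 rose, where 19.5% and 19.6% of all genes tested rose. The 2 of 10 against sham neurobots is near that share. The counts in each comparison still hold rspo3.L and lgr5.L, which would not have passed the filter through the other bot type alone. rspo2.L (6L, 144263290 to 144349466) had 0.684, 1.96, 3.92 and 3.11 FPKM in NB1 to NB4, 0.0127, 0, 0 and 0.0249 in sham neurobots and 0.0276 in BB4 alone of the biobots. It was near 0 outside neurobots, and its pooled counts were 375 times those of biobots (exact interval 104 to 3106, 775 counts against 2). Against sham neurobots the ratio was 235 (80.2 to 1143, 775 counts against 3). It passed the filter only through neurobots. It made up an average of 13.3% of the FPKM of the R-spondin axis in neurobots and 0.1% in each of the other bot types. rspo2.S reached at most 0.373 FPKM in any pool and was not tested.

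rspo3.L (5L, 70329547 to 70380231) had 0.411, 0.917, 0.821 and 0.638 FPKM in neurobots, 0.0657 to 0.128 in sham neurobots and 0.0346 to 0.0895 in biobots. It rose by 3.33 ± 0.44 against biobots (adjusted p = 0.000269) and 2.70 ± 0.38 against sham neurobots (adjusted p = 0.000534), with no overlap. The counts of rspo3.L, 7, 5, 10 and 11 in biobots and 17, 9, 12 and 16 in sham neurobots, would not have passed the filter alone. These tests are thus not read as support. lgr5.L (3L, 66542584 to 66653523), a receptor of R-spondins known as a stem cell marker of the mouse gut, had 0.421 to 0.679 FPKM in neurobots, 0.0476 to 0.331 in sham neurobots and 0.0358 to 0.170 in biobots. The counts of lgr5.L, 3, 19, 9 and 9 in biobots and 34, 18, 21 and 5 in sham neurobots, would not have passed the filter alone. lgr5.L rose by 2.43 ± 0.47 against biobots (adjusted p = 0.00282) and by 1.47 ± 0.50 against sham neurobots (adjusted p = 0.0451). The last call was lost without any of NB1 to NB4, SH2, SH3 or SH4 (adjusted p up to 0.0923), when scaled by library size alone (0.0791), with a replicate block (0.0504) and with the submission as a covariate (0.0578). lgr5.S reached at most 0.152 FPKM in any pool and was tested only against sham neurobots (adjusted p = 0.0935, or 0.0326 without NB2).

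The ligases and LGR4 made up most of this group's FPKM in all bot types. rnf43.S (2S, 32166901 to 32237255), its most abundant member, had 1.72, 3.46, 6.67 and 5.56 FPKM in NB1 to NB4, 3.59 to 5.15 in sham neurobots and 2.28 to 2.98 in biobots. Neurobot pools spanned the range of the others, with NB1 lowest of all, and the log2 fold change against biobots was 0.72 ± 0.35 (adjusted p = 0.143, or 0.00658 without NB1). rnf43.L, with 0.776 FPKM in NB1 and 1.90 to 3.97 in the other neurobots, 0.952 to 2.82 in sham neurobots and 1.10 to 1.64 in biobots, likewise passed against biobots only without NB1 (adjusted p = 0.127 with it and 0.00514 without).

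Of 11 secreted inhibitors tested, 8 rose against biobots (7 of 10 without notum.L, which passed the filter only through neurobots) and 8 against sham neurobots, and none fell by edgeR's test, by DESeq2 or at an unadjusted p under 0.05. Among all genes tested 19.5% and 19.6% rose in these comparisons. The 8 against sham neurobots include notum.L and sfrp2.L, which would not have passed the filter through the sham neurobots alone. Against biobots the same holds for dkk1.S and dkk1.L. The counts of inhibitors that rose thus hold rises that the filter favoured and are not read against the shares. The summed level of the inhibitors was 61.8 ± 1.54 FPKM in neurobots, against 38.8 ± 8.66 in sham neurobots and 24.0 ± 7.38 in biobots (SD, n = 4 each). The neurobot pools, at 59.7 to 63.3 FPKM, lay close together and above all others.

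dkk1, which blocks LRP5 and LRP6, rose in both copies. dkk1.S (7S, 6356394 to 6361522) had 8.14, 12.4, 8.15 and 7.89 FPKM in neurobots, 1.93, 1.58, 2.55 and 2.68 in sham neurobots and 0.925, 0.282, 0.962 and 0 in biobots. No groups overlapped. The log2 fold change was 4.07 ± 0.71 against biobots (adjusted p = 0.0015) and 2.03 ± 0.25 against sham neurobots (adjusted p = 0.000248). dkk1.L (7L, 8781354 to 8786238) had 2.27 to 4.43 FPKM in neurobots, 0.228 to 0.385 in sham neurobots and 0.0857 to 0.379 in biobots, and rose by 3.54 ± 0.46 (adjusted p = 0.000267) and 3.42 ± 0.36 (adjusted p = 0.000101). The biobot counts, 32, 13, 37 and 0 for dkk1.S and 3, 16, 12 and 15 for dkk1.L, would not have passed the filter alone. The tests of dkk1 against biobots are thus not read as support.

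notum.L (9_10L, 24211976 to 24339353) encodes an enzyme that removes the lipid that Wnt proteins need. It had 0.606, 2.46, 1.84 and 1.68 FPKM in neurobots, 0.153, 0.0542, 0.0472 and 0.164 in sham neurobots and 0.0427, 0.0257, 0.0231 and 0.00755 in biobots. No groups overlapped. Its biobot pools held 5, 4, 3 and 1 counts, so no test is given against biobots. Against sham neurobots, whose pools held 22, 8, 6 and 24 counts, it rose by 3.92 ± 0.54 on the log2 scale (adjusted p = 0.000505). It would not have passed the filter on low counts through the sham neurobots alone, so this test is not read as support. The gene overlaps card14.L on the other strand, which had mean levels of 0.678 FPKM in neurobots, against 0.918 in sham neurobots and 0.711 in biobots. notum.S had 0.754 to 1.94 FPKM in neurobots, 0.631 to 0.723 in sham neurobots and 0.186 to 0.826 in biobots, with log2 fold changes of 1.66 ± 0.47 (adjusted p = 0.0215) and 0.92 ± 0.29 (adjusted p = 0.034). These calls were lost without BB2, BB3, BB4 or NB3 (with adjusted p as high as 0.0637) and, against sham neurobots, without any pool other than NB1 (up to 0.0991), in a fit of all 12 libraries (0.0829), with library size alone (0.086) and with a replicate block (0.0667).

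sfrp2.S (1S, 43980617 to 43991575), the inhibitor with the highest mean level and a decoy that binds Wnt proteins, passed the test in no comparison. It had 18.4, 14.9, 18.5 and 15.2 FPKM in neurobots, 33.6, 27.2, 16.7 and 14.7 in sham neurobots and 18.4, 6.81, 11.5 and 6.08 in biobots. The pools of the 3 bot types overlapped. Its log2 fold change against biobots was 0.63 ± 0.32 (adjusted p = 0.154, or 0.0126 without BB1), and that of sham neurobots against biobots was 1.13 ± 0.36 (adjusted p = 0.0854, or 0.018 without BB1 and 0.0199 with DESeq2). sfrp2.L, at 0.339 to 1.17 FPKM in neurobots, 0.0529 to 0.198 in sham neurobots and 0.149 to 0.274 in biobots, rose by 1.82 ± 0.43 (adjusted p = 0.00805) and 2.48 ± 0.50 (adjusted p = 0.00417). Its sham neurobot counts, 22, 15, 17 and 6, would not have passed the filter alone. With the copies summed, sfrp2 was not called (0.109 and 0.264). sfrpx.S and sfrpx.L, named after their values were seen, were the next most abundant inhibitors. sfrpx.S had 13.5 to 17.1 FPKM in neurobots, 6.33 to 8.28 in sham neurobots and 6.35 to 7.93 in biobots (log2 fold changes 1.04 and 1.05, adjusted p = 0.000491 and 0.000736), and it overlaps lamtor1.S on the other strand.

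**Figure D3:**
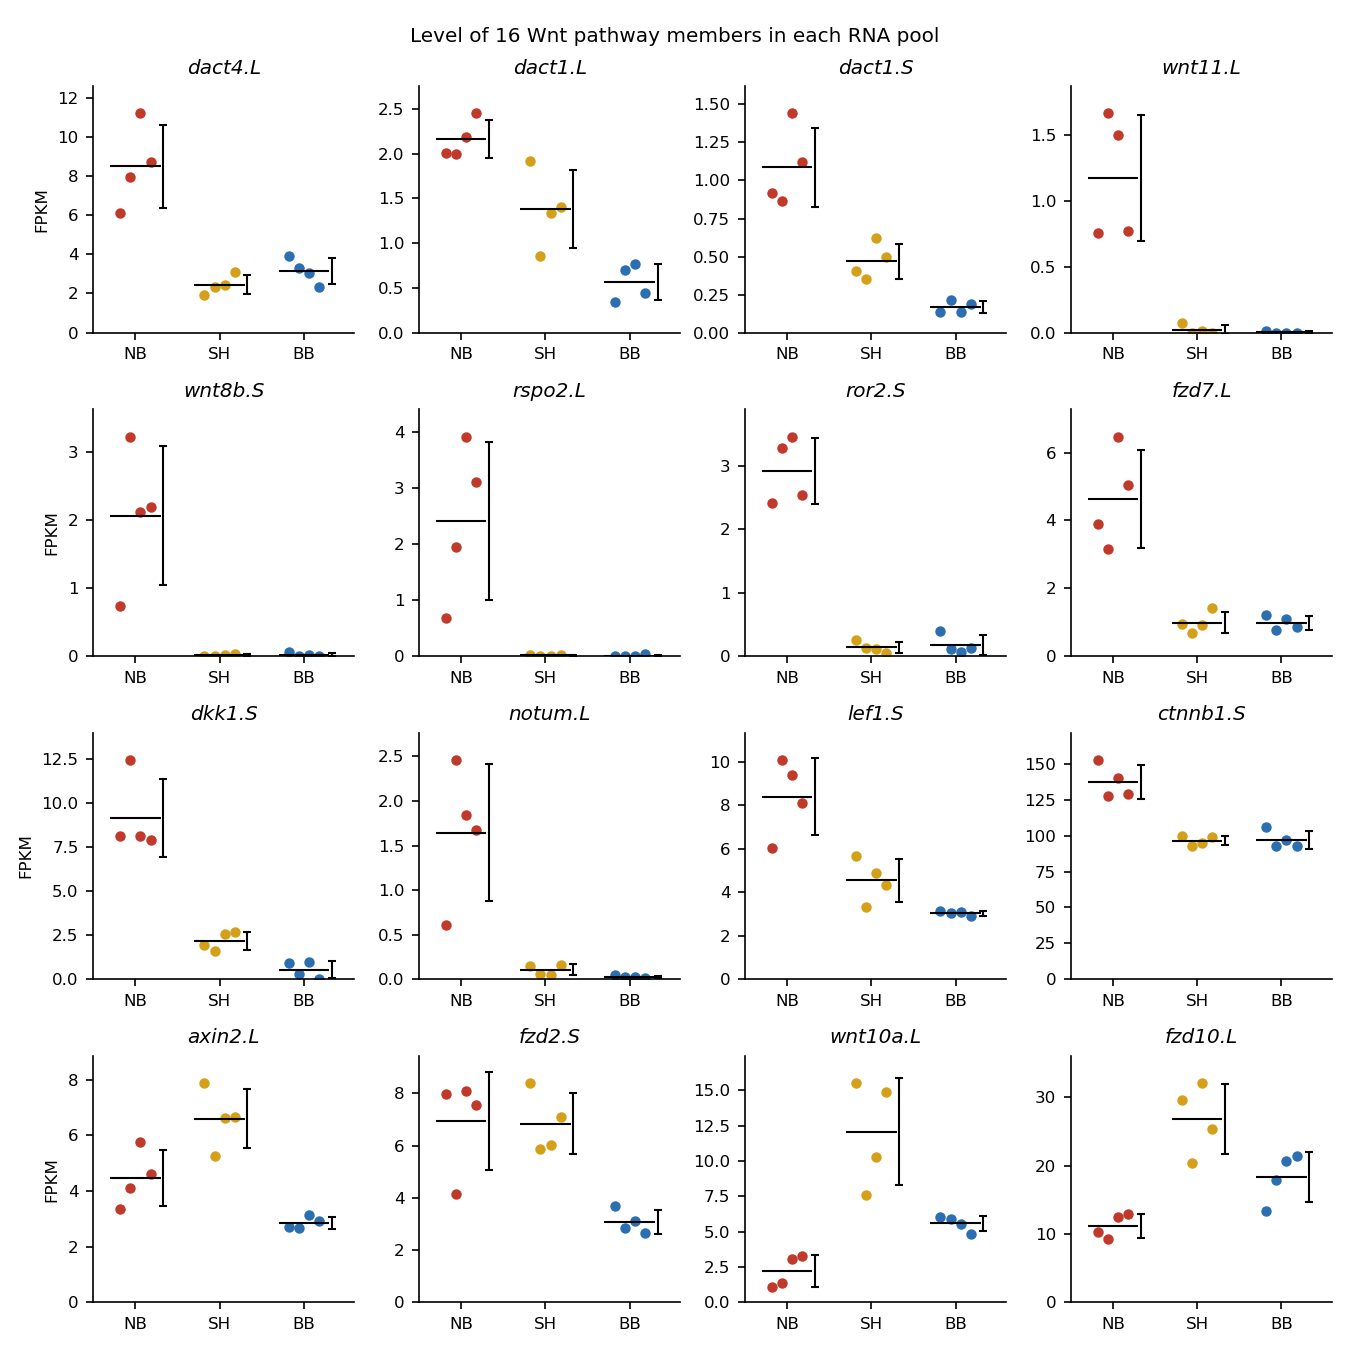
FPKM (vertical axis, from 0, scaled to each gene) of 16 named members in the 4 pools per bot type (NB, neurobots, SH, sham neurobots, BB, biobots); points are pools, horizontal lines are means and error bars are SD. dact4.L lies between 6.09 and 11.2 FPKM in neurobots and at or under 3.92 in all other pools, while wnt10a.L and fzd10.L are lowest in neurobots.

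Of 12 cytoplasmic transducers tested, 6 rose and 1 fell against biobots, and 2 rose and 3 fell against sham neurobots. All genes tested had shares of 19.5% and 12.3% against biobots, and 19.6% and 13.2% against sham neurobots. The rises against sham neurobots were near that share. dact4.L (4L, 25914481 to 25927494), present in the table as an L copy only, had 6.09, 7.96, 11.2 and 8.73 FPKM in NB1 to NB4. It had 1.91, 2.34, 2.45 and 3.10 FPKM in sham neurobots and 3.92, 3.29, 3.06 and 2.31 in biobots. Every neurobot pool lay above every other pool, and sham neurobots and biobots overlapped. It rose by 1.42 ± 0.24 against biobots (adjusted p = 0.00107) and by 1.76 ± 0.23 against sham neurobots (adjusted p = 0.000404). Between sham neurobots and biobots the log2 fold change was -0.34 ± 0.20 (adjusted p = 0.324). With single libraries left out, the log2 fold change against biobots stayed between 1.26 and 1.53.

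The other Dact gene, dact1, differed from dact4 in the sham neurobots. dact1.L (8L, 94774041 to 94779532) had 2.01, 1.99, 2.19 and 2.45 FPKM in neurobots, 1.92, 0.861, 1.34 and 1.41 in sham neurobots and 0.344, 0.703, 0.764 and 0.447 in biobots. The 3 groups formed an order without overlap, with SH1 just under the lowest neurobot pool. The log2 fold change of neurobots was 1.91 ± 0.30 against biobots (adjusted p = 0.00068) and 0.61 ± 0.25 against sham neurobots (adjusted p = 0.0887, or 0.0441 without SH1). dact1.S (8S, 7159370 to 7165396) had 0.864 to 1.44 FPKM in neurobots, 0.352 to 0.620 in sham neurobots and 0.133 to 0.213 in biobots, again without overlap. It rose by 2.66 ± 0.36 against biobots (adjusted p = 0.000303) and by 1.18 ± 0.31 against sham neurobots (adjusted p = 0.016, or 0.0528 without NB3).

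ctnnb1, which encodes beta-catenin, was the most abundant member in every bot type. ctnnb1.S (6S, 46309541 to 46327339) had 153, 128, 140.0 and 129 FPKM in neurobots, 92.9 to 99.4 in sham neurobots and 92.8 to 106 in biobots. Its neurobot pools lay above all others, while sham neurobots and biobots overlapped. The change was small, 0.48 ± 0.17 against biobots (adjusted p = 0.045) and 0.47 ± 0.17 against sham neurobots (adjusted p = 0.0582). The call against biobots was lost without any pool other than NB2 (adjusted p up to 0.139), with a replicate block (0.105), without the filter on low counts (0.0927) and with homeologs summed (0.0551). ctnnb1.L had 111 to 129 FPKM in neurobots, 81.2 to 98.4 in sham neurobots and 89.5 to 93.5 in biobots, with log2 fold changes of 0.38 ± 0.16 (adjusted p = 0.0943) and 0.32 ± 0.17 (adjusted p = 0.178). DESeq2 called ctnnb1.S against sham neurobots (adjusted p = 0.00243) and ctnnb1.L against biobots (0.0225).

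axin2, a scaffold of the complex that destroys beta-catenin and itself a widely used target of canonical signalling, was highest in sham neurobots in its L copy. axin2.L (7L, 122767950 to 122783269) had 3.37, 4.12, 5.75 and 4.59 FPKM in neurobots, 7.87, 5.25, 6.63 and 6.64 in sham neurobots and 2.71, 2.66, 3.12 and 2.94 in biobots. Neurobots were above all biobots and overlapped with SH2. It rose by 0.63 ± 0.19 against biobots (adjusted p = 0.0266) and fell by 0.60 ± 0.20 against sham neurobots (adjusted p = 0.0417). The first call was lost without NB3, NB4, BB1, BB2 or BB4 (adjusted p up to 0.0823), and the second without NB1, NB2, NB4, SH1, SH3 or SH4 (up to 0.0983) when homeologs were summed (0.356), when scaled by library size alone (0.122), with a replicate block (0.0645), with the submission as a covariate (0.0596) and without NB1 and BB1 (0.0534). axin2.S, with 1.66, 3.79, 5.57 and 5.02 FPKM in neurobots, 2.18 to 3.49 in sham neurobots and 1.06 to 1.90 in biobots, rose against biobots by 1.42 ± 0.35 (adjusted p = 0.0101). Its log2 fold change against sham neurobots was 0.38 ± 0.33 (adjusted p = 0.399, or 0.0353 without NB1).

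dvl1.L (7L, 96729256 to 96818272), a Dishevelled gene, had 0.761, 0.738, 1.59 and 1.32 FPKM in neurobots, 2.65, 2.50, 2.53 and 1.59 in sham neurobots and 1.81, 3.04, 2.71 and 2.03 in biobots. NB3 reached the level of SH4. It fell by 1.13 ± 0.32 against biobots (adjusted p = 0.0204) and by 1.10 ± 0.31 against sham neurobots (adjusted p = 0.0216). The calls were lost without NB2 or BB2 (adjusted p up to 0.0624), without NB2, SH1 or SH3 (up to 0.0545), and in both comparisons when scaled by library size alone (0.0907 and 0.0603).

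Of 6 TCF/LEF factors tested, which hold 2 homeolog pairs, 3 rose against each of the other bot types and none fell by edgeR's test, by DESeq2 or at an unadjusted p under 0.05. Among all genes tested 19.5% rose against biobots and 19.6% against sham neurobots. lef1.S (1S, 55345186 to 55429491), an activating partner of beta-catenin, had 6.04, 10.1, 9.39 and 8.12 FPKM in neurobots, 5.69, 3.34, 4.91 and 4.32 in sham neurobots and 3.13, 3.03, 3.09 and 2.89 in biobots. The 3 groups did not overlap, and it rose by 1.45 ± 0.19 against biobots (adjusted p = 0.000233) and 0.84 ± 0.22 against sham neurobots (adjusted p = 0.0143, or 0.067 when scaled by library size alone). lef1.L, at 4.84 to 8.27 FPKM in neurobots, 7.97 to 9.78 in sham neurobots and 7.99 to 9.07 in biobots, had log2 fold changes of -0.22 ± 0.19 (adjusted p = 0.411) and -0.38 ± 0.20 (adjusted p = 0.154). With the counts of both copies summed, lef1 was called against biobots at 0.43 (adjusted p = 0.0337) and not against sham neurobots (adjusted p = 0.422).

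tcf7l1 encodes mostly a repressor of Wnt targets. tcf7l1.S (3S, 26322179 to 26367348) had 7.49, 7.88, 11.8 and 10.3 FPKM in neurobots, 4.87 to 7.26 in sham neurobots and 4.89 to 6.08 in biobots, without overlap. It rose by 0.75 ± 0.19 against biobots (adjusted p = 0.0122) and by 0.69 ± 0.21 against sham neurobots (adjusted p = 0.0283, lost without NB3, NB4, SH2, SH3 or SH4 with adjusted p up to 0.0906, with library size alone at 0.122 and with a replicate block at 0.0622). tcf7l1.L (3L, 134733624 to 134772900) had 5.77 to 11.1 FPKM in neurobots, 9.49 to 13.5 in sham neurobots and 9.08 to 11.5 in biobots, with log2 fold changes of -0.35 ± 0.22 (adjusted p = 0.248) and -0.35 ± 0.23 (adjusted p = 0.25). Summed over both copies, tcf7l1 was not called (adjusted p = 0.356 and 0.424). tcf7.S (3S, 12839179 to 12926144), with 0.445, 1.06, 1.32 and 1.36 FPKM in neurobots, 0.464 to 0.563 in sham neurobots and 0.295 to 0.627 in biobots, rose by 1.26 ± 0.38 (adjusted p = 0.0277) and 0.97 ± 0.33 (adjusted p = 0.047). NB1 overlapped with the other bots. Its calls were lost without BB2, BB3, BB4, NB2, NB3 or NB4 (with adjusted p as high as 0.0775) and without any pool other than NB1 against sham neurobots (up to 0.117). With a replicate block they were also lost (0.0907 and 0.112), and against sham neurobots with library size alone (0.109) and with limma (0.068 and 0.0843).

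In the planar polarity core, both copies of prickle1 and of prickle2 rose against biobots, and edgeR called no Vangl gene in that comparison. Of 10 tested, 4 rose against biobots and none fell by edgeR, by DESeq2 or at an unadjusted p under 0.05, and 3 rose and 1 fell against sham neurobots. Among all genes tested 19.5% rose against biobots, and 19.6% rose and 13.2% fell against sham neurobots. The summed level was 46.4 ± 8.91 FPKM in neurobots, against 47.0 ± 6.65 in sham neurobots and 41.5 ± 2.90 in biobots (SD, n = 4 each), and the groups overlapped. prickle1.S (3S, 83503840 to 83567893) had 1.29, 1.46, 1.16 and 0.984 FPKM in neurobots, 0.149 to 0.289 in sham neurobots and 0.154 to 0.249 in biobots. It rose by 2.69 ± 0.28 against biobots (adjusted p = 7.66e-05) and by 2.45 ± 0.28 against sham neurobots (adjusted p = 0.000152), without overlap. prickle1.L (3L, 71420005 to 71432039) had 0.332, 1.29, 1.62 and 1.46 FPKM in neurobots, 0.342 to 0.520 in sham neurobots and 0.141 to 0.230 in biobots. It rose by 2.74 ± 0.48 (adjusted p = 0.00142) and 1.39 ± 0.43 (adjusted p = 0.0328), the last lost without any pool other than NB1 (adjusted p up to 0.0832), with library size alone (0.0706), with limma (0.0514 and 0.0676) and with a replicate block (0.0969).

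prickle2.L (4L, 146048142 to 146284278), which overlaps the transfer RNA gene trnat-ugu on the other strand, had 0.158, 0.586, 0.777 and 0.696 FPKM in neurobots, 0.0547 to 0.128 in sham neurobots and 0.0237 to 0.174 in biobots. It rose by 2.80 ± 0.64 (adjusted p = 0.00725) and 2.66 ± 0.53 (adjusted p = 0.00386). The counts of prickle2.L in BB3, BB4 and SH2, at 9, 4 and 11, were under the filter's count for their library size. Neither other bot type would have passed alone, so these tests are not read as support. prickle2.S, at 0.418 to 1.94 FPKM in neurobots, 0.499 to 0.793 in sham neurobots and 0.251 to 0.658 in biobots, rose against biobots by 1.63 ± 0.45 (adjusted p = 0.0186, lost without BB2 or BB4 with up to 0.0557, and with a replicate block at 0.0635). Its log2 fold change against sham neurobots was 1.04 ± 0.40 (adjusted p = 0.0729, or 0.00177 without NB1). vangl2.L (8L, 127333192 to 127388557), the most abundant gene of the core, had 12.6, 9.33, 17.7 and 15.7 FPKM in neurobots, 8.34 to 15.5 in sham neurobots and 9.40 to 11.3 in biobots. Its log2 fold change against biobots was 0.41 ± 0.21 (adjusted p = 0.159), and that of vangl2.S was 0.29 ± 0.23 (adjusted p = 0.377), and without NB2 both were called (0.0292 and 0.0482). vangl1.L, named after its values were seen, fell against sham neurobots by 0.71 on the log2 scale (adjusted p = 0.0204).

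**Figure D4:**
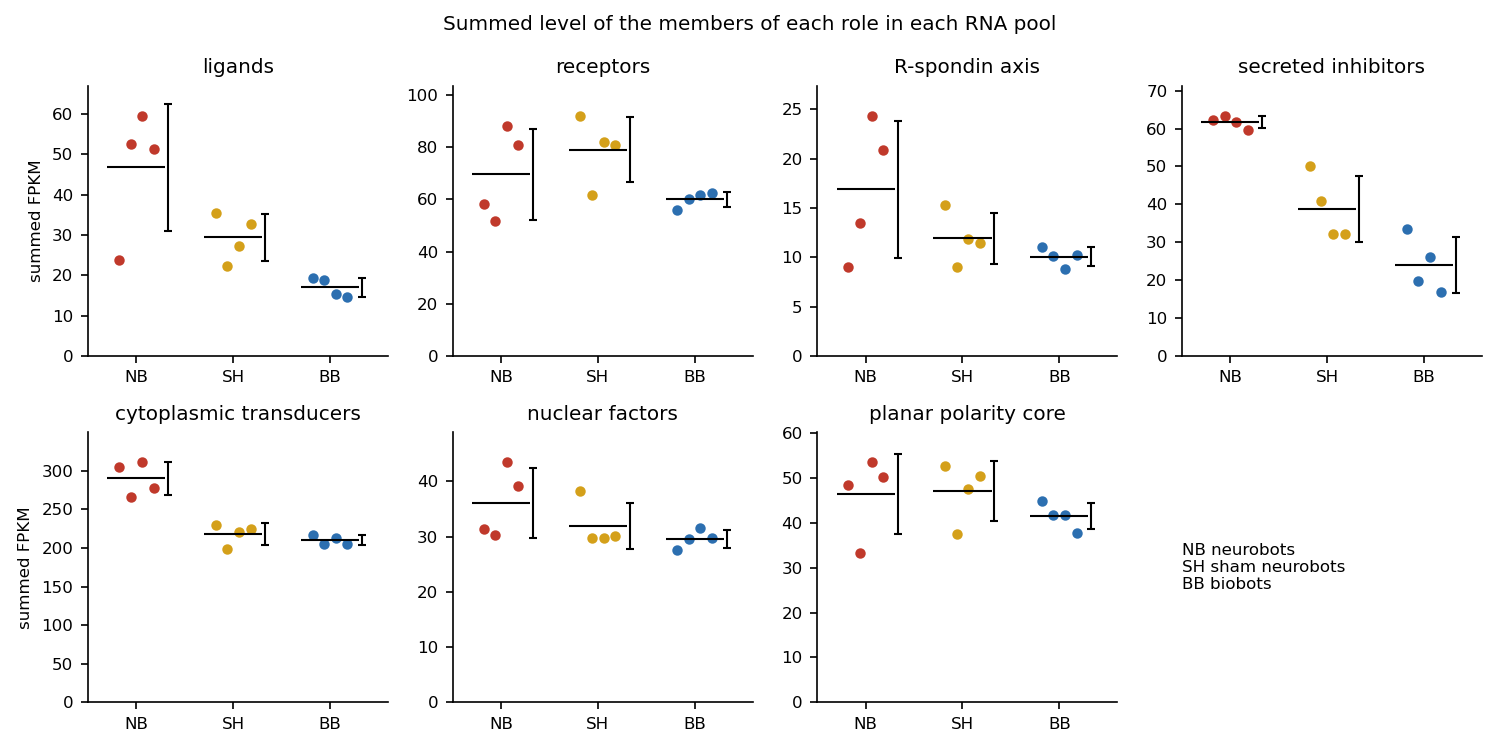
Summed FPKM (vertical axis, from 0) of the members of each role in the 4 pools per bot type (NB, neurobots, SH, sham neurobots, BB, biobots); points are pools, lines are means and error bars are SD. Secreted inhibitors (59.7 to 63.3 FPKM) and cytoplasmic transducers (266 to 311 FPKM) of neurobots lie above all other pools, while receptors and the planar polarity core overlap between the bot types. Most of the transducer sum is ctnnb1.S and ctnnb1.L, on average 47.3% and 41.2% in neurobots, 44.3% and 42.7% in sham neurobots and 46.1% and 43.3% in biobots. Neither copy was called by edgeR against sham neurobots.

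Sham neurobots and biobots differed in fewer members. Of 81 tested, 12 were higher and 1 was lower in sham neurobots, where 3.55% of all genes tested were higher and 2.19% lower. The median log2 fold change was 0.27, against 0.00 over all genes. The number higher was 19 without BB1 and 17 without SH2, but 4 without SH1 or SH3, 5 without BB3 and 2 without SH4, BB2 or BB4, and the number lower was 2 without BB1, 1 without SH2 and 0 without any other pool. By role, 3 ligands, 3 receptors, 1 gene of the R-spondin axis, 4 transducers and 1 planar polarity gene were higher, and wnt7b.L was lower.

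The calls of axin2.L and fzd2.S were kept in every alternative run. axin2.L, with the values given above, was higher in sham neurobots by 1.23 ± 0.14 on the log2 scale (adjusted p = 0.00275). fzd2.S (9_10S, 4638783 to 4641680), a Frizzled receptor, had 8.39, 5.86, 6.04 and 7.09 FPKM in sham neurobots and 3.71, 2.86, 3.12 and 2.66 in biobots, without overlap (log2 fold change 1.17 ± 0.16, adjusted p = 0.00561). In neurobots it had 7.96, 4.14, 8.11 and 7.55 FPKM, higher than in biobots (1.16 ± 0.24, adjusted p = 0.00407) and within the range of sham neurobots except in NB2 (-0.01 ± 0.24, adjusted p = 0.966).

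The other named calls between sham neurobots and biobots depended on single libraries. wnt10a.L was higher by 1.14 ± 0.22 (adjusted p = 0.0185, lost without SH4, BB2 or BB4 with up to 0.0681), and axin2.S by 1.03 ± 0.20 (adjusted p = 0.0214, lost without SH3, SH4, BB2 or BB4 with up to 0.0732). rnf43.S was higher by 0.73 ± 0.15 (adjusted p = 0.0237, lost without SH1, SH4, BB2, BB3 or BB4 with up to 0.0757). prickle1.L was higher by 1.34 ± 0.30 (adjusted p = 0.0295, lost without SH1, SH3, SH4, BB2 or BB4 with up to 0.103). The calls of dact1.L (1.31 ± 0.31, adjusted p = 0.0377), dact1.S (1.49 ± 0.35, 0.0347), wnt6.L (0.87 ± 0.20, 0.0342) and the lower wnt7b.L (-1.77 ± 0.41, 0.0341) were lost without any pool other than SH2 or BB1 (adjusted p up to 0.105, 0.107, 0.105 and 0.104 in that order). In a fit of all 12 libraries, the calls of wnt10a.L (0.104), axin2.S (0.119), rnf43.S (0.261), prickle1.L (0.127) and wnt6.L (0.113) were lost, and with a replicate block those of prickle1.L (0.062), dact1.L (0.0723), dact1.S (0.0773) and wnt7b.L (0.0713). Of 22 neuronal marker genes 7 were tested between sham neurobots and biobots, and none was called by edgeR (2 higher and 1 lower at an unadjusted p under 0.05, 1 higher and 1 lower by DESeq2), while 3 of 10 keratinocyte markers were higher in sham neurobots and 1 was lower. Their part in the result was not tested.

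The share of the L copy in a homeolog pair was compared between bot types. In 25 of the 43 pairs both copies averaged at least 0.5 FPKM and were above 0 in all 12 libraries. The last condition left out dkk1, since dkk1.S was at 0 in BB4. The L share did not overlap between neurobots and biobots in 9 of them, between neurobots and sham neurobots in 8 and between sham neurobots and biobots in 3, where 28.0%, 32.6% and 16.3% of 5000 pairs in the whole table were apart in the same way. The members were near the background, and nothing particular to Wnt genes is read from the shares. The comparison of shares was chosen after values were seen and is given without a test, and reads of near-identical copies can be assigned to either.

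The examples notum, ror2, lef1 and tcf7l1 were picked from pairs whose share in neurobots was apart from both other bot types. For notum the L share was 44.6% to 67.2% in neurobots, 6.64% to 19.6% in sham neurobots and 3.89% to 9.28% in biobots. For ror2 it was 48.3% to 61.2% in neurobots, 82.5% to 96.2% in sham neurobots and 84.1% to 95.9% in biobots. The S copy of ror2, minor elsewhere, came near the L copy in neurobots. For lef1 the L share was 32.4% to 57.4% in neurobots, 61.9% to 74.0% in sham neurobots and 72.5% to 74.6% in biobots, and for tcf7l1 it was 42.3% to 51.5%, 63.3% to 66.7% and 65.0% to 67.5% in the same order. From the pairs that were not apart, ctnnb1 held an even share, 45.4% to 48.0% in neurobots, 46.6% to 50.4% in sham neurobots and 46.0% to 49.6% in biobots.

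**Figure D5:**
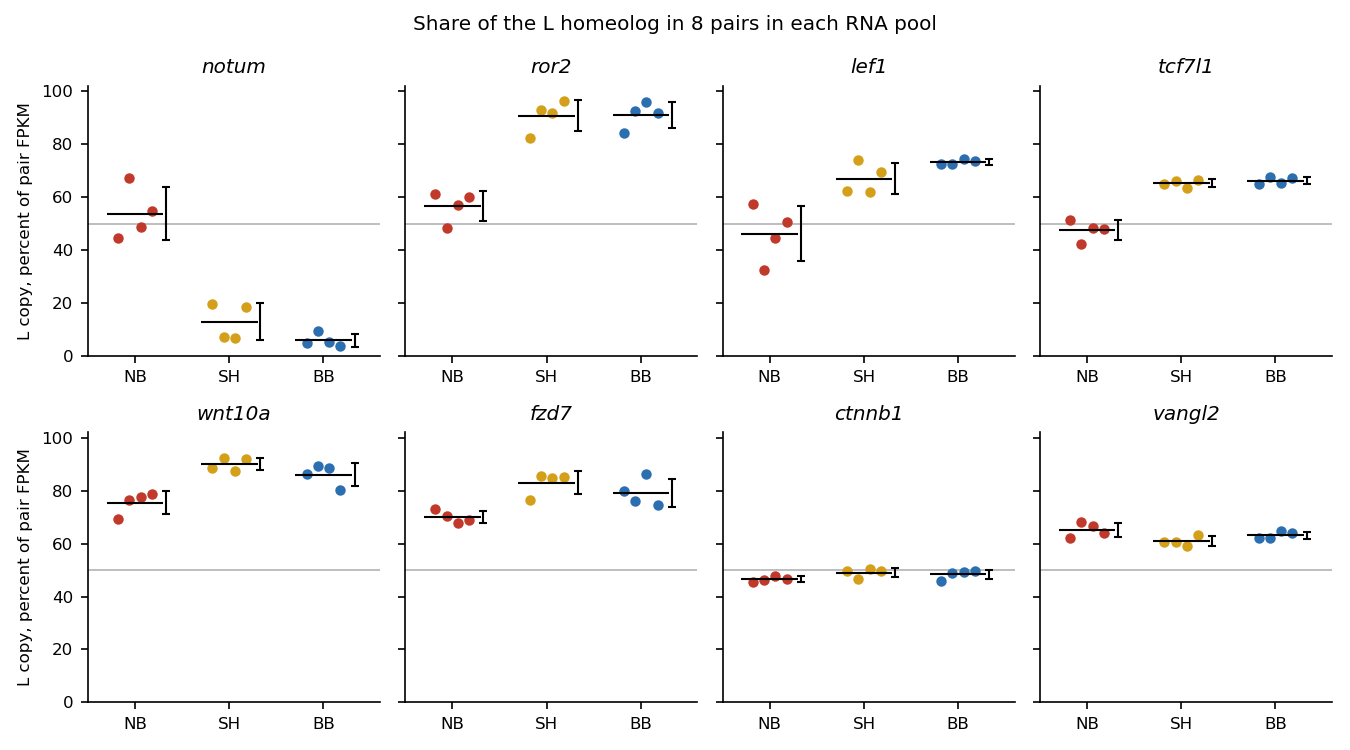
Share of the L copy in the summed FPKM of a homeolog pair (vertical axis, percent; grey line at 50) for 8 pairs in the 4 pools per bot type (NB, neurobots, SH, sham neurobots, BB, biobots); points are pools, lines are means and error bars are SD. In neurobots notum lies at 44.6% to 67.2% and in the other pools at or under 19.6%, while ctnnb1 and vangl2 overlap between neurobots and biobots.

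Neurobot pools varied in their Wnt genes. Of the 57 members with a mean above 1 FPKM, NB1 was the lowest neurobot pool in 25 and NB2 in 27, while NB3 was the highest in 32. Over all 18158 genes of that level, NB1 was lowest in 34.1%, NB2 in 23.9% and NB3 highest in 20.1%. Progenitor markers summed to 115 FPKM in NB1 and 249 to 293 in the other neurobots, and retinal markers to 4.03 FPKM in NB1 and 26.1 to 47.2 in the others, so NB1 was lower in these markers as well as in ligands and the R-spondin axis. The part of these cells in the spread was not tested. In sham neurobots SH1 was highest in 35 and SH2 lowest in 37 of the 57 members, where over all genes SH1 was highest in 31.6% and SH2 lowest in 33.2%.

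Other genes of the pathway, from lists of 104 genes, were called higher in neurobots in 32 of 88 tested and lower in 4 against biobots, and in 27 and 9 of 89 against sham neurobots. Over all genes, 19.5% and 12.3% were higher and lower against biobots, and 19.6% and 13.2% against sham neurobots. Between sham neurobots and biobots 78 of the 104 were tested. Listed genes that passed the filter on low counts only through neurobots had to differ and were not taken out. Counts of rises above those shares are therefore not read as a result. Of the 6 lists, secretion factors and extracellular modulators held the most calls, with 14 of 21 higher and 3 lower against biobots. wls, which carries Wnt proteins to the cell surface, rose in both copies: wls.L had 23.0 to 29.5 FPKM in neurobots, 8.53 to 10.6 in sham neurobots and 7.07 to 10.8 in biobots (log2 fold changes 1.45 ± 0.17 and 1.37 ± 0.15, adjusted p = 0.000146 and 0.00013). wif1.S, which encodes an inhibitor that binds Wnt, had 3.69, 5.06, 2.91 and 3.27 FPKM in neurobots, 0.0181 to 0.0626 in sham neurobots and 0.0147 to 0.0392 in biobots. kremen1.S, a receptor of Dkk proteins, and shisa3.S, which holds back Frizzled, fell in neurobots: kremen1.S had 3.10 to 5.83 FPKM in neurobots, 13.5 to 15.7 in sham neurobots and 10.5 to 18.2 in biobots.

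Of 19 genes of the destruction complex and its regulators, 18 were tested, and 6 rose and none fell against biobots by edgeR (1 by DESeq2, 2 at an unadjusted p under 0.05). Against sham neurobots 5 rose and 1 fell. Of 18 nuclear cofactors 3 rose against biobots, and 3 rose and 3 fell against sham neurobots. Of 12 other planar polarity genes tested 1 rose against biobots, and 2 fell and none rose against sham neurobots by edgeR (none higher by DESeq2 or at an unadjusted p under 0.05). Both lists were under the share of all genes that rose, which was 19.5% against biobots and 19.6% against sham neurobots. Among 15 tested genes known as Wnt targets, 7 rose and 1 (cdx2.L) fell against biobots, and 6 rose and 1 (meis3.S) fell against sham neurobots. Between sham neurobots and biobots 12 targets were tested. Targets that passed the filter only through neurobots were not taken out, so these rises are not read against the shares. sp5.L, a direct target of canonical signalling in vertebrate embryos, had 3.03, 7.92, 5.07 and 4.32 FPKM in neurobots, with at most 0.0176 in sham neurobots and 0.0778 in biobots. myc.S had 14.3 to 38.3 FPKM in neurobots, 1.49 to 3.73 in sham neurobots and 3.08 to 5.48 in biobots. Between sham neurobots and biobots 8 of 78 listed genes were higher and 1 (snai2.S) was lower, where 3.55% of all genes tested were higher and 2.19% lower. Among the 8, meis3.S and meis3.L, known as posterior neural targets in the frog, had log2 fold changes of 1.14 ± 0.19 (adjusted p = 0.0123) and 1.17 ± 0.24 (adjusted p = 0.0221).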

How the data were processed

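RNA of 12 pools of bots (4 per group) was sequenced from a low-input, non-directional library. By the study's methods, clean reads were aligned to the X. laevis genome, version 10.1, with Hisat2 2.0.5 and counted per gene with FeatureCounts 1.5.0-p3, and the submitters' notes also list StringTie 1.3.3b and DESeq2 1.20.0. The authors deposited raw read counts per gene and FPKM values. The deposited FPKM equalled the counts divided by gene length and by an effective library size (DESeq2's size factor times the geometric mean total), to within a relative 2.44e-13.

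Every comparison had a fit of its own 8 libraries, without covariates, in R 4.3.3 with edgeR 4.0.16: TMM, filterByExpr (minimum count 10, minimum total 15), robust glmQLFit and glmQLFTest, Benjamini-Hochberg over all genes, threshold 0.05. The scripts were tested on simulated data. Levels and sums are FPKM. Where a group had 3 counts or fewer in every library, ratios of pooled counts with exact 95% intervals, or bounds against 3 counts per library, replace fitted folds, and these cover counting error only. Alternatives used DESeq2 1.42.0, limma 3.58.1 on log2(FPKM + 1) and log2(FPKM + 0.1), other scalings and filters, all 12 libraries, a replicate block, the submission, single libraries left out and summed homeologs. Samples were grouped by title, and bots per pool came from the study's methods.

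Named members were every dact copy, up to 3 members per role with the largest rise and fall against biobots among those called alike against sham neurobots and biobots, the most abundant member per role, up to 10 members called between sham neurobots and biobots, and the other homeolog of each. Members and lists were chosen with earlier results of these data known. All 112 members matched the gene table of the same assembly by identifier. Tables and figures were made with Python 3.11.15, pandas 2.3.3 and matplotlib 3.10.9.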

Additional observations from a re-analysis of the deposited data

Results flagged for a closer look

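In 48 named members, 144 groups of 4 pools were examined for a pool far from the other 3 (a gap above Dixon's critical value for 4 samples), and 11 were found, where chance gives about 1 in 20. In neurobots, dkk1.S was high in NB2 at 12.4 FPKM (7.89 to 8.15 in the others), fzd2.S was low in NB2 at 4.14 FPKM (7.55 to 8.11) and wnt6.S was low in NB1 at 0.513 FPKM (1.85 to 2.09). In sham neurobots, wnt11.L was high in SH1 at 0.0715 FPKM (0 to 0.0115), tcf7l1.L was high in SH1 at 13.5 FPKM (9.49 to 9.97), ctnnb1.L was low in SH2 at 81.2 FPKM (96.2 to 98.4) and dvl1.L was low in SH4 at 1.59 FPKM (2.50 to 2.65). In biobots, tcf7l1.L was low in BB1 at 9.08 FPKM (11.4 to 11.5). There, wnt11.L (0.0125 FPKM in BB1), wnt11b.L (0.0171 FPKM in BB1) and rspo2.L (0.0276 FPKM in BB4) had counts in 1 pool and 0 in the other 3. With 0 in 3 pools any count in the last is flagged, so the rate of 1 in 20 does not apply to such groups.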

How the results depend on the processing

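Members higher in neurobots numbered 39 to 57 against biobots and 28 to 48 against sham neurobots with single libraries left out, and stayed within 1.5 times the reported counts under every alternative run. Members lower against biobots numbered 3, with 0 when scaled by library size alone, 5 without NB1 and BB1 and 2 to 5 with single libraries left out. Members lower against sham neurobots numbered 7, with 3 when scaled by library size alone and 3 to 9 with single libraries left out. Over all genes, library size alone shifted the median log2 fold change by 0.10, -0.06 and 0.16 (neurobots against biobots, neurobots against sham neurobots, sham neurobots against biobots). Between sham neurobots and biobots, the 12 members higher became 4 in a fit of all 12 libraries, 19 without NB1 and BB1 and 2 to 19 with single libraries left out, and the 1 lower became 2 with DESeq2, 0 with the replicate block, 2 with the submission as a covariate, 2 without NB1 and BB1 and 0 to 2 with single libraries left out. Replicate numbers did not pair the pools (same-number correlations from -0.39 to 0.53). Pools of other numbers ranged from -0.63 (NB3 and SH2) to 0.66 (NB3 and SH1), and the cause was not tested. With the replicate block 40 and 29 members were higher and 3 and 6 lower in neurobots, against biobots and sham neurobots in that order. With homeologs summed, the sign turned for lef1.L against biobots (0.43), sfrp2.L against sham neurobots (-0.39) and wnt6.S between sham neurobots and biobots (0.77), since the summed value takes in the other copy. The summed FPKM of the roles moved by less than 1 SD under every alternative. The cause of the other changes was not tested. Members that did not reach about 10 counts in at least 4 of the 8 libraries of a comparison were not tested. An example is wnt1.S, with 7, 88, 87 and 65 counts in NB1 to NB4. The planned search of promoters was not run because promoter sequences were not used here.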
